A study of Rattus norvegicus with 6 samples.

Results

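The 8 genes described here encode 7 enzymes of cholesterol synthesis (Hmgcs1, Idi1, Fdps, Sqle, Lss, Cyp51 and Dhcr7) and Insig1, a protein that holds the pathway in check. They were chosen by name, and all 8 were found among the 19616 genes listed for rat liver and among the 14864 genes tested, which averaged 0.1 FPKM or more. None of the 8 encodes a receptor that takes up lipoproteins, so they are called cholesterol synthesis genes throughout.

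Cells build cholesterol from acetyl-CoA. The early steps make isoprene units and join them into farnesyl diphosphate, which also feeds the synthesis of dolichol, ubiquinone and prenyl anchors of proteins. The later steps make squalene, close it into the first sterol, lanosterol, and trim lanosterol to cholesterol. The liver is a major site of this synthesis and also sends cholesterol into lipoproteins and bile. The transcription factor SREBP-2, encoded by Srebf2, turns on most genes of the pathway when sterols in the endoplasmic reticulum are low. When sterols are plentiful, the INSIG proteins retain SREBP-2 and its escort SCAP in the endoplasmic reticulum.

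Livers of male Sprague-Dawley rats were compared to find out how expression differed in fibrosis. In the FL group (rats FL2, FL5 and FL12), an equal mixture of carbon tetrachloride (CCl4, a solvent that injures hepatocytes) and olive oil was injected intraperitoneally at 2 mL per kg, 2 times per week over 5 weeks. The CL group (rats CL5, CL6 and CL7) was injected with olive oil alone at an equal volume, and 1 library was made from each liver after removal of ribosomal RNA. The age of the rats, the hour of sacrifice and the time since the last meal were not given in the sources used here. Expression was deposited as FPKM, that is, fragments scaled to transcript length and to library size. The FPKM of all genes summed to 309425, 340467 and 315259 in CL5, CL6 and CL7, and to 309226, 272350 and 272110 in FL2, FL5 and FL12. Read depth is not given for single libraries, so the spread between the 3 rats of a group is the error given.

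One rat stood apart in these genes. CL5 was at least 1.5 times as high as both CL6 and CL7 in 8 of the 8 genes, whereas 5.25% of all genes tested met that limit, which was chosen after the data were seen. The FPKM of the 8 genes summed to 602 in CL5, 317 in CL6 and 306 in CL7, and to 488 in FL2, 467 in FL5 and 451 in FL12. The CL5 rat carries the same label as CL6 and CL7 and was kept in all results, and results without it are given beside them.

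None of the 8 cholesterol synthesis genes was upregulated or downregulated in the FL group at an adjusted p under 0.05 by limma, and 1 of 8, Sqle, had an unadjusted p under 0.05, beside 35.5% of all genes tested. Over all genes tested, 18.9% were called, 16.9% as higher and 1.94% as lower in the FL group. The groups overlapped in each of the 8 genes, while 40.5% of all genes tested had groups without overlap. The log2 differences (FL minus CL, on the log2(FPKM + 0.1) scale) were positive in 6 of 8 genes, of which Idi1 and Dhcr7 turned negative after median scaling and Dhcr7 after quantile normalization. Their median was 0.28, beside 0.29 over all genes tested. Relative to that shift of all genes, 4 of 8 were positive. Median scaling moved the median of all genes to 0.08 and quantile normalization to -0.04, and the median of the 8 genes became 0.06 and 0.12. The genes called as higher and lower numbered 2518 and 288 in all, 1301 and 533 after median scaling, and 778 and 536 after quantile normalization. With single rats left out, the genes called as higher ran from 938 (without CL7) to 3198 (without FL2) and those called as lower from 121 (without CL6) to 338 (without FL2). In bulk liver, fewer cells of a type and less RNA per cell cannot be told apart.

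**Figure D1:**
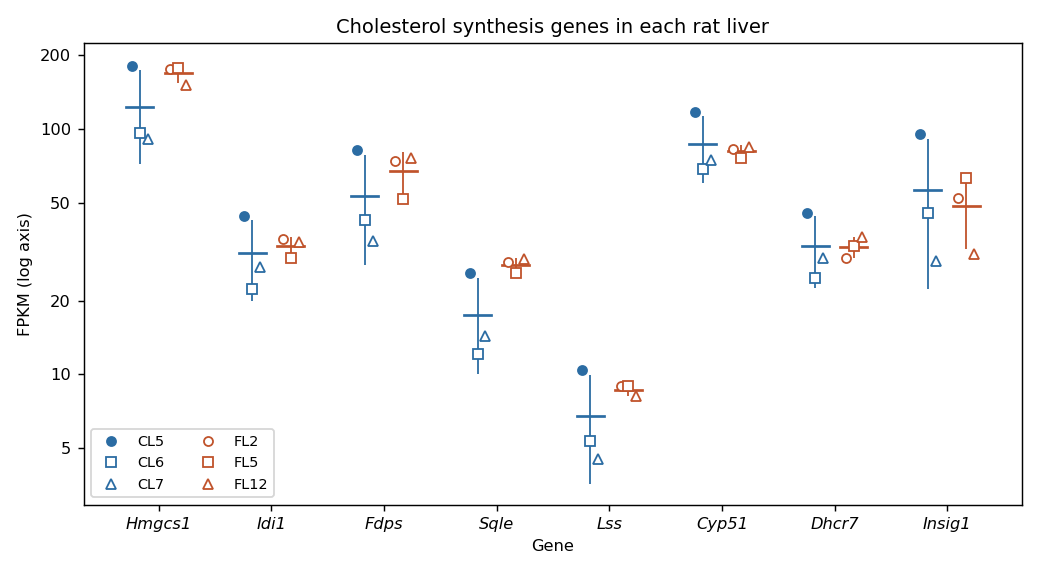
FPKM (log axis) of the 8 genes in each of the 6 rats, with CL rats in blue and FL rats in orange. Symbols are single rats (CL5 filled), horizontal lines are group means and vertical lines are 1 SD either side. CL5 is the highest CL rat in 8 of 8 genes.

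The early enzymes were Hmgcs1, Idi1 and Fdps. Hmgcs1 (ENSRNOG00000016552, chromosome 2), the cytosolic synthase that makes HMG-CoA, was the most abundant of the 8 genes. Its FPKM was 181 in CL5, 95.9 in CL6 and 90.8 in CL7, and 176 in FL2, 178 in FL5 and 151 in FL12. All FL rats lay above CL6 and CL7 and below CL5. The mean was 123 ± 50.9 (SD, n = 3) in the CL group and 169 ± 15.0 (SD, n = 3) in the FL group. The log2 difference was 0.53 (SE 0.26, limma adjusted p = 0.187), with a 95% interval from -0.07 to 1.13. Idi1 (ENSRNOG00000016690, chromosome 17) interconverts the pair of isoprene units. Idi1 stood at 44.0, 22.4 and 27.4 FPKM in the CL rats 5, 6 and 7, against 35.6, 29.9 and 34.6 FPKM in the FL rats 2, 5 and 12. The FL rats again lay between CL5 and the other CL rats. The log2 difference of Idi1 was 0.15 (95% interval -0.39 to 0.69, limma adjusted p = 0.670), and it turned to -0.074 after median scaling. Fdps (ENSRNOG00000043377, chromosome 2) joins isoprene units into farnesyl diphosphate. The FPKM of Fdps was 82.1, 42.6 and 34.9 in CL5, CL6 and CL7, and 74.1, 52.1 and 75.9 in FL2, FL5 and FL12. FL5 was the lowest FL rat for Fdps and still lay above CL6 and CL7. The log2 difference of Fdps was 0.42 (95% interval -0.29 to 1.13, limma adjusted p = 0.360).

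Among the enzymes of the sterol branch, Sqle (ENSRNOG00000009550, chromosome 7) encodes squalene epoxidase, which adds the oxygen needed for ring closure. The FPKM of Sqle was 25.8 in CL5, 12.1 in CL6 and 14.3 in CL7, and 28.6 in FL2, 25.8 in FL5 and 29.5 in FL12. Unrounded, CL5 (25.82) lay just above FL5 (25.79), and this pair of rats alone made the groups of Sqle overlap. The mean was 17.4 ± 7.36 (SD, n = 3) in the CL group and 27.9 ± 1.92 (SD, n = 3) in the FL group. The log2 difference was 0.76 (SE 0.26, 95% interval 0.17 to 1.35), the largest of the 8 genes. Its unadjusted p was 0.0184 and its adjusted p 0.0764 by limma, which missed the threshold. Lss (ENSRNOG00000054549, chromosome 20) closes the rings to lanosterol and was the least abundant of the 8 genes. Lss was at 10.4, 5.37 and 4.53 FPKM in the CL rats 5, 6 and 7, against 8.93, 8.95 and 8.13 FPKM in the FL rats 2, 5 and 12. The FL rats lay close together, below CL5 and above CL6 and CL7. The log2 difference of Lss was 0.45 (95% interval -0.20 to 1.09, limma adjusted p = 0.285).

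Cyp51 and Dhcr7 act after ring closure, and their means lay close together between groups. Cyp51 (ENSRNOG00000007234, chromosome 4), the demethylase of lanosterol, had 117, 68.8 and 74.8 FPKM in the CL rats 5, 6 and 7, against 83.0, 76.0 and 84.9 FPKM in the FL rats 2, 5 and 12. The means were 87.0 ± 26.5 (SD, n = 3) in the CL group and 81.3 ± 4.65 (SD, n = 3) in the FL group, and the log2 difference was -0.06 (95% interval -0.53 to 0.41, limma adjusted p = 0.858). Dhcr7 (ENSRNOG00000020776, chromosome 1) catalyses the last reduction to cholesterol in one branch of the pathway. Its FPKM was 45.7, 24.7 and 29.7 in CL5, CL6 and CL7, and 29.7, 33.3 and 36.2 in FL2, FL5 and FL12. FL2 and CL7 were almost level for Dhcr7, and FL5 and FL12 lay between CL7 and CL5. The log2 difference of Dhcr7 was 0.03 (95% interval -0.47 to 0.53, limma adjusted p = 0.934), and it was -0.19 after median scaling and -0.075 after quantile normalization. For 3 of the 8 genes (Idi1, Cyp51 and Dhcr7) the interval lay inside a 2-fold change either way, and for the other 5 it reached past it.

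Insig1 (ENSRNOG00000006859, chromosome 4) is the regulator among the 8 genes and is itself a target of SREBP-2. Its FPKM was 95.3 in CL5, 45.7 in CL6 and 29.1 in CL7, and 52.1 in FL2, 62.9 in FL5 and 31.1 in FL12. CL5 was the highest rat, and CL7 and FL12 were low in their groups. Relative to its mean, Insig1 had the widest spread of the 8 genes in both groups, with 56.7 ± 34.4 FPKM (SD, n = 3) in the CL group and 48.7 ± 16.2 FPKM (SD, n = 3) in the FL group. The log2 difference was -0.10 (95% interval -1.08 to 0.88, limma adjusted p = 0.880).

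The differences between the groups depended on CL5. The ratio of CL5 to the mean of CL6 and CL7 ran from 1.64 in Cyp51 to 2.55 in Insig1, with a median of 1.95. CL5 was the highest of the 6 rats in 7 of the 8 genes (8.14% of all genes tested), Sqle being the exception. The FL rats all lay above both CL6 and CL7 in 6 of the 8 genes, whereas 42.6% of all genes tested did so. The exceptions were Dhcr7 and Insig1. CL5 was the highest CL rat in each of the 8 genes, so leaving it out raises their log2 differences by its construction. The genes tested as a whole were not picked in this way. Without CL5, the calls by limma were 3 of 8 genes as higher in the FL group and 0 as lower, while 8.76% of the 14961 genes tested then were called as higher. The 3 genes were Sqle, with a log2 difference of 1.08 (adjusted p = 0.0127), Hmgcs1 with 0.85 (adjusted p = 0.0250) and Lss with 0.80 (adjusted p = 0.0248). Fdps came to 0.78 (adjusted p = 0.0588), Idi1 to 0.43, Insig1 to 0.36, Dhcr7 to 0.28 and Cyp51 to 0.18. Over all alternatives run, the adjusted p ranged from 0.0127 to 0.226 for Sqle, from 0.0250 to 0.499 for Hmgcs1, from 0.0248 to 0.706 for Lss and from 0.0588 to 0.762 for Fdps. The median of the 8 genes without CL5 was 0.60, beside 0.30 over all genes tested. Leaving out any of the other 5 rats gave 0 calls among the 8 genes. Differences were also smaller in other settings. Without CL7, Hmgcs1 came to 0.35, Fdps to 0.17 and Lss to 0.21, and with median scaling these were 0.30, 0.20 and 0.22. Lss was at 0.19 with quantile normalization, and Sqle at its lowest was 0.53, with median scaling and without CL6.

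In the CL group the coefficient of variation of the 8 genes ran from 30.5% to 60.8% (median 41.9%), beside a median of 11.7% over all genes averaging 1 FPKM or more. In the FL group it ran from 5.4% to 33.2% (median 9.0%), beside 14.4% over the same genes. Over CL6 and CL7 alone, an alternative chosen after CL5 was seen to be the highest, which lowers the spread by its construction, it ran from 3.8% in Hmgcs1 to 31.4% in Insig1, with a median of 12.5%, beside 8.9% over the same genes. The spread was not tested between groups.

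By mean FPKM, the order in the CL group was Hmgcs1, Cyp51, Insig1, Fdps, Dhcr7, Idi1, Sqle and Lss. Between neighbours in that order, the ranges over the rats overlapped except for Sqle and Lss. In the FL group the order was Hmgcs1, Cyp51, Fdps, Insig1, Idi1, Dhcr7, Sqle and Lss. There the ranges did not overlap between Hmgcs1 and Cyp51, Cyp51 and Fdps, Dhcr7 and Sqle, or Sqle and Lss. By mean FPKM over the 6 rats, Hmgcs1 exceeded 98.5% of all genes tested and Lss 74.4%, and the others lay between them.

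The 8 genes varied together across the rats. Pearson's r between log2(FPKM + 0.1) values over the 6 rats ranged from 0.342 (Insig1 and Sqle) to 0.983 (Lss and Hmgcs1) over the 28 pairs, with a median of 0.733. Among the 21 pairs without Insig1 the lowest r was 0.569, between Cyp51 and Sqle. These 6 points comprise both groups and the high CL5 rat, and r is given as a description. With each gene set to a mean of 0 and an SD of 1 over the 6 rats, the mean over the 8 genes was 1.22 in CL5, -1.05 in CL6 and -1.0 in CL7, and 0.37, 0.19 and 0.27 in FL2, FL5 and FL12. The profiles most like this mean over the 6 rats, among the 10527 genes averaging 1 FPKM or more, were those of F5 (r = 0.990), LOC500300 (r = 0.988), Nipsnap3b (r = 0.987), Hbs1l (r = 0.987) and LOC100910472 (r = 0.982). F5 encodes coagulation factor V, which hepatocytes secrete. The FPKM of F5 was 50.5, 33.3 and 34.9 in CL5, CL6 and CL7, and 43.1, 43.9 and 43.8 in FL2, FL5 and FL12.

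The list of 13 other enzymes between acetyl-CoA and cholesterol had 1 upregulated gene and 0 downregulated genes by limma, beside 18.9% of all genes called. An unadjusted p under 0.05 was found for 4 of 13, beside 35.5% of all genes, and the median log2 difference was 0.23. The called gene was Lbr, a sterol reductase that also binds lamin and chromatin at the inner nuclear membrane. Lbr had 1.93, 1.97 and 1.93 FPKM in the CL rats 5, 6 and 7, against 3.51, 3.82 and 4.06 FPKM in the FL rats 2, 5 and 12. The FL rats lay above all CL rats, and the log2 difference was 0.93 (SE 0.14, limma adjusted p = 0.00603). CL5 did not stand apart in Lbr, and r with the mean profile of the 8 genes was 0.33. Of the 13 enzymes, 9 had an r of at least 0.75 with that profile, whereas 3.34% of the 10527 genes compared did. CL5 reached at least 1.5 times both CL6 and CL7 in 5 of the 13. Without CL5, the genes called as higher numbered 4 of 13, namely Lbr, Msmo1, Mvd and Mvk, the last 3 named after their values were seen, beside 8.76% of all genes tested.

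Among 9 genes of sterol sensing, 1 was downregulated and 1 upregulated by limma, beside 18.9% of all genes called in either direction, and the median log2 difference was 0.21. Insig2, a relative of Insig1 with the same retention role, was the downregulated gene and the most abundant of the list. Its FPKM was 157 in CL5, 90.8 in CL6 and 100.5 in CL7, and 30.3 in FL2, 36.8 in FL5 and 19.0 in FL12. The FL rats all lay below the CL rats, with means of 116 ± 35.6 (SD, n = 3) in the CL group and 28.7 ± 9.02 (SD, n = 3) in the FL group. The log2 difference was -2.02 (SE 0.28, limma adjusted p = 0.00497), and the call was kept under all 14 alternatives run. Insig1 and Insig2 were not tested against each other. Insig2 was above Insig1 in each CL rat and below it in each FL rat. Erlin2, a protein of the endoplasmic reticulum that takes part in sterol-dependent degradation, was the upregulated gene, with 5.63 ± 0.494 FPKM (SD, n = 3) in the CL group and 8.79 ± 0.878 FPKM (SD, n = 3) in the FL group. Its log2 difference was 0.63 (limma adjusted p = 0.0165), and the call was lost with both scalings (adjusted p = 0.0673 and 0.115, range over the alternatives 0.0133 to 0.115) and without CL7 (0.0681) or FL12 (0.0507). Srebf2 had 28.6, 25.3 and 21.8 FPKM in the CL rats 5, 6 and 7, against 30.3, 27.8 and 29.3 FPKM in the FL rats 2, 5 and 12. Its log2 difference was 0.21 (limma adjusted p = 0.263), and r with the mean profile of the 8 genes was 0.79. Srebf2 falls outside the rule for named genes and was added after its values were seen.

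Of 11 genes of sterol export and storage, 4 were upregulated and 2 downregulated by limma, beside 16.9% and 1.94% of all genes, with a median log2 difference of 0.21. Without CL5 the calls were 2 in each direction, beside 8.76% as higher and 1.06% as lower over all genes. Abcg5 and Abcg8, the subunits of the transporter that secretes sterols into bile, were the downregulated genes. The FPKM of Abcg5 was 6.70, 6.32 and 4.02 in CL5, CL6 and CL7, and 0.50, 1.17 and 1.67 in FL2, FL5 and FL12. Abcg8 had 3.61, 2.56 and 1.41 FPKM in the CL rats 5, 6 and 7, against 0.09, 0.33 and 0.29 FPKM in the FL rats 2, 5 and 12. Neither pair of groups overlapped, and the log2 differences were -2.35 (SE 0.39, limma adjusted p = 0.00837) and -2.96 (SE 0.43, limma adjusted p = 0.00544). At FPKM this low, the pseudocount of 0.1 makes the change of Abcg8 look smaller. Soat1, which esterifies cholesterol for storage, had 0.95, 0.99 and 1.52 FPKM in the CL rats 5, 6 and 7, against 3.35, 7.56 and 4.38 FPKM in the FL rats 2, 5 and 12. Its log2 difference was 2.0 (SE 0.31, limma adjusted p = 0.00684). Abcg1, a sterol exporter of macrophages and other cells, had 1.07, 1.40 and 1.08 FPKM in the CL rats 5, 6 and 7, against 3.24, 3.63 and 2.91 FPKM in the FL rats 2, 5 and 12. Its log2 difference was 1.39 (SE 0.18, limma adjusted p = 0.00437). The calls of Abcg5, Abcg8, Soat1 and Abcg1 were kept under all 14 alternatives, CL5 left out included. Those of the other upregulated genes, Mylip and Npc2, were kept under 7 and 5 of 14 and were lost with both scalings. Lcat, the enzyme that esterifies cholesterol in plasma lipoproteins, was the most abundant gene of the list, with 144 ± 0.484 FPKM (SD, n = 3) in the CL group and 140 ± 41.3 FPKM (SD, n = 3) in the FL group.

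**Figure D2:**
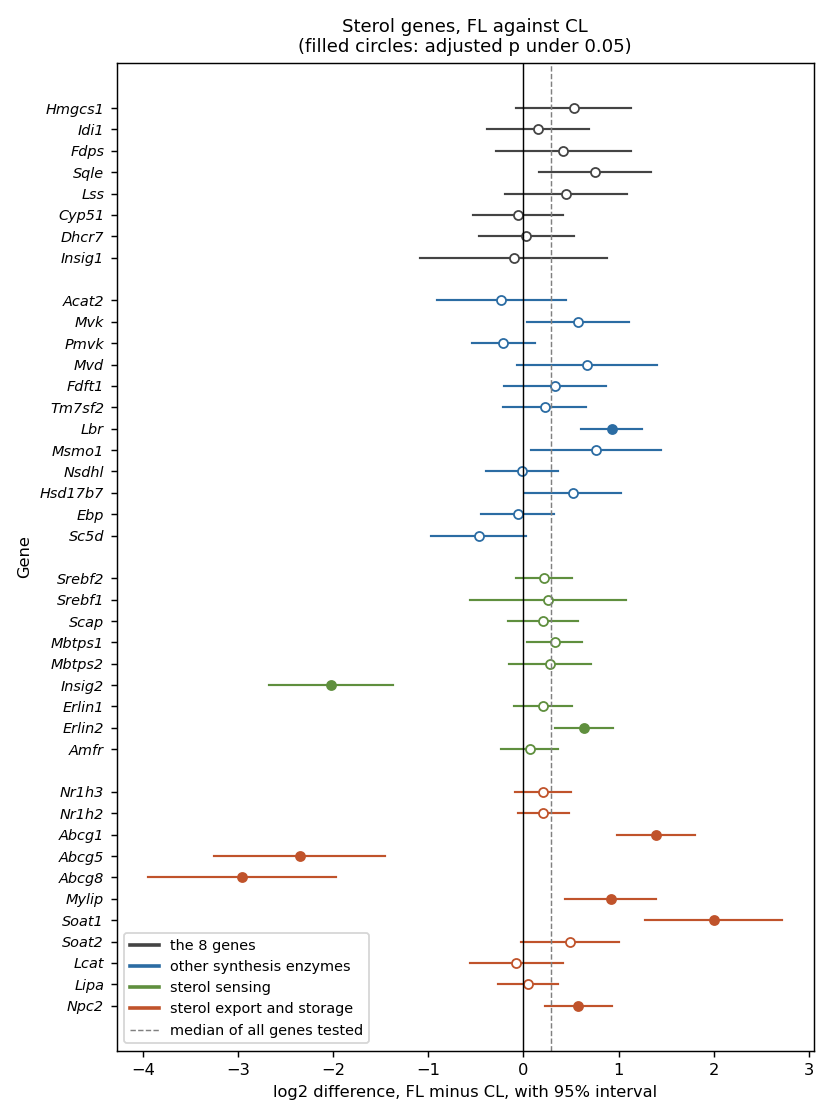
Log2 difference between the FL and CL groups (x axis, FL minus CL on the log2(FPKM + 0.1) scale) with its 95% interval from limma, for the 8 genes and genes of 3 lists of sterol genes (y axis). Filled circles had an adjusted p under 0.05, and the dashed line marks the median of all genes tested, 0.29. The 8 genes have open circles, and Insig2, Abcg5 and Abcg8 lie farthest to the left.

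Other lists near the pathway, of 4, 6 and 9 genes, had 1, 1 and 2 calls, beside 18.9% of all genes tested. Of 4 genes of lipoprotein receptors, which include Lrpap1, a chaperone of such receptors, 1 was upregulated and 0 downregulated by limma. This was Vldlr, a receptor that binds lipoproteins rich in triglyceride, with 0.36 ± 0.0755 FPKM (SD, n = 3) in the CL group and 1.46 ± 0.632 FPKM (SD, n = 3) in the FL group. Its log2 difference was 1.68 (limma adjusted p = 0.0164), and the call was lost without CL5 (adjusted p = 0.0521), CL7 (0.0664) or FL5 (0.0625) and with quantile normalization (0.0594), in a range of 0.00518 to 0.0664 over the alternatives. Lrp1, a large endocytic receptor and the most abundant of the 4, had 76.1, 81.4 and 68.6 FPKM in the CL rats 5, 6 and 7, against 121, 104 and 88.1 FPKM in the FL rats 2, 5 and 12 (limma adjusted p = 0.0704). Of 6 other targets of SREBP-2, only Fads2, a desaturase of fatty acids, was called by limma. Fads2 had 175 ± 37.3 FPKM (SD, n = 3) in the CL group and 295 ± 59.8 FPKM (SD, n = 3) in the FL group, a log2 difference of 0.76 (limma adjusted p = 0.0457), and its call was lost with both scalings (adjusted p = 0.135 and 0.0725, range over the alternatives 0.0236 to 0.162). Leaving out CL6, CL7, FL5 or FL12 also ended it (adjusted p = 0.129, 0.162, 0.132 and 0.104), as did no filter on low values (0.073) and limma without trend (0.0715). In the isoprenoid branch, 2 of 9 genes were upregulated and 0 downregulated by limma. They were Dhdds, a subunit of the enzyme that makes the dolichol chain (log2 difference 0.69, limma adjusted p = 0.0122), and Fntb, a subunit of protein farnesyltransferase (log2 difference 1.06, limma adjusted p = 0.0153). The call of Fntb was lost with quantile normalization (adjusted p = 0.212, range over the alternatives 0.0159 to 0.212) and without CL6 (0.0523), CL7 (0.0618) or FL5 (0.0548). The call of Dhdds was lost without CL7 (adjusted p = 0.0535) or FL5 (0.0508), in a range of 0.0103 to 0.0535 over the alternatives. Dhdds had 9.39 ± 1.29 FPKM (SD, n = 3) in the CL group and 15.2 ± 0.933 FPKM (SD, n = 3) in the FL group.

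Fatty acid synthesis, driven by the related factor SREBP-1, had 0 of 7 tested genes called by limma in either direction, and 2 of 7 had an unadjusted p under 0.05. The median log2 difference of this list was 0.64, beside 0.29 over all genes tested, and Scd, also listed, was not analysed here. Thrsp, a nuclear protein that promotes lipogenesis and the most abundant of the list, had 170, 239 and 133 FPKM in the CL rats 5, 6 and 7, against 420, 169 and 288 FPKM in the FL rats 2, 5 and 12. Ketone body synthesis uses HMG-CoA in mitochondria. By limma, 0 of its 4 genes were called, beside 18.9% of all genes tested, and 0 had an unadjusted p under 0.05, beside 35.5%.

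Genes of the circadian clock, which times cholesterol synthesis in liver, differed between the groups. By limma, 8 of 9 clock genes of the phase of Dbp were upregulated in the FL group, and 4 of 5 of the opposite phase were downregulated, beside 16.9% and 1.94% of all genes tested. Dbp, a clock output factor, had 0.46, 0.91 and 0.81 FPKM in the CL rats 5, 6 and 7, against 25.6, 27.1 and 31.8 FPKM in the FL rats 2, 5 and 12. Arntl, the partner of CLOCK in the core loop, had 12.4, 11.6 and 10.7 FPKM in the CL rats 5, 6 and 7, against 3.71, 3.82 and 2.88 FPKM in the FL rats 2, 5 and 12. The groups of Dbp and of Arntl did not overlap, and the log2 differences were 5.13 (limma adjusted p = 0.000126) and -1.72 (limma adjusted p = 0.00164). Without CL5, 7 of 9 and 3 of 5 genes were called, beside 8.76% and 1.06% of all genes tested. The summed FPKM of the list of the phase of Dbp was 21.3, 17.9 and 20.4 in CL5, CL6 and CL7, and 88.3, 97.2 and 102 in FL2, FL5 and FL12. The summed FPKM of the opposite phase was 50.03, 46.9 and 44.0 in CL5, CL6 and CL7, and 25.2, 21.8 and 17.8 in FL2, FL5 and FL12. CL5 was the highest CL rat in both sums, by less than the groups differed. Single clock genes of CL5 departed from CL6 and CL7 in both directions, with ratios of CL5 to their mean of 2.07 for Nr1d1, 1.47 for Nr1d2, 0.535 for Dbp and 0.441 for Per1, genes picked after their values were seen. The part of the clock genes in the results above was not tested.

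Markers of cell types also differed between the groups. Over all genes tested, 16.9% were called as higher and 1.94% as lower, and 35.5% had an unadjusted p under 0.05 by limma. Of 8 hepatocyte-like markers, 0 were called by limma in either direction and 1 had an unadjusted p under 0.05. Their summed FPKM, most of it Alb (albumin), was 40613, 38509 and 38952 in CL5, CL6 and CL7, and 32994, 31639 and 31584 in FL2, FL5 and FL12. That sum was lower in each FL rat than in any CL rat, but 4 of the 8 markers had positive log2 differences (median -0.01). Without Alb, an alternative chosen after the data were seen, the sum was 7221, 7078 and 6960 in CL5, CL6 and CL7, and 8846, 6587 and 6375 in FL2, FL5 and FL12, so that FL2 lay above the CL rats and the other FL rats below them. Of the 7 stellate or myofibroblast-like markers tested, 4 were upregulated and 0 downregulated, and Col3a1 was the most abundant. Their summed FPKM was 79.3, 83.6 and 77.3 in CL5, CL6 and CL7, and 193, 529 and 480 in FL2, FL5 and FL12. Col1a2, a defining marker of these cells, was listed near 0 in every rat and was not tested. Of 8 macrophage-like markers, 4 were upregulated and 0 downregulated, Clec4f was the most abundant, and the sums were 130, 121 and 123 FPKM in the CL rats 5, 6 and 7, against 304, 294 and 183 FPKM in the FL rats 2, 5 and 12. Both of these sums were higher in each FL rat than in any CL rat. Of 5 endothelial-like markers analysed, 2 were upregulated, with Kdr as the most abundant, and the sums ran from 55.8 to 63.3 FPKM in the CL rats and from 69.0 to 78.5 FPKM in the FL rats. Of 5 cycling markers, 2 were upregulated, with Mki67 as the most abundant, and the sums ran from 2.39 to 4.56 FPKM in the CL rats and from 4.04 to 18.4 FPKM in the FL rats. The 4 cholangiocyte-like markers tested (Epcam the most abundant) and the 6 lymphocyte-like markers (Cd8a the most abundant) had 0 genes called by limma, and 0 and 1 with an unadjusted p under 0.05. The cholangiocyte-like sums ran from 5.27 to 7.68 FPKM in the CL rats and from 5.18 to 10.5 FPKM in the FL rats, and the lymphocyte-like sums from 1.77 to 2.36 and from 2.29 to 5.49 FPKM. Without CL5, the upregulated markers, beside 8.76% of all genes, numbered 4 (stellate or myofibroblast-like), 5 (macrophage-like), 1 (endothelial-like) and 0 (cycling). The calls of the stellate or myofibroblast-like and macrophage-like markers were kept under all 14 alternatives, whereas those of Stab2, Vwf, Birc5 and Mki67 were kept under 13, 6, 9 and 3 of 14. The part of these cell types in the results on the 8 genes was not tested.

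The 250 bases before the transcription start of the 8 genes were searched on both strands for 3 motifs known from promoters of this pathway. RefSeq gave this window for 7 of the 8 genes (build GRCr8), and Sqle had none. The core of the sterol regulatory element, TCACNCCAC, was found in 0 of 7 windows, beside 0.974% of the 33469 windows of all genes, and in 0 of the 10 windows of the other synthesis enzymes. The box of the factor NF-Y, with the letters CCAAT, which the other strand reads as ATTGG, was found in 5 of 7, beside 34% of all windows, and in 9 of those 10 windows. The Sp1 box, GGGCGG, was found in 6 of 7, beside 30.5% of all windows, and in 9 of those 10. These matches describe letters in a window and were not tested as binding sites. The stretches that hold the NF-Y boxes are shown as an example of the motifs found, with the box in capitals, each read 5′ to 3′ on the strand of its gene. They lie at chr2:53382096-53382195 (plus strand) for Hmgcs1, chr17:66547535-66547610 (minus strand) for Idi1, chr2:176804877-176804966 (minus strand) for Fdps, chr20:12118288-12118332 (minus strand) for Lss and chr4:8057938-8057982 (minus strand) for Insig1, all upstream of the start.
Hmgcs1: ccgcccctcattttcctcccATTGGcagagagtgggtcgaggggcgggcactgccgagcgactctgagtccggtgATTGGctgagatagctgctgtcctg
Idi1: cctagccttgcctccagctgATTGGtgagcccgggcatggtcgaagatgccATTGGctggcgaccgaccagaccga
Fdps: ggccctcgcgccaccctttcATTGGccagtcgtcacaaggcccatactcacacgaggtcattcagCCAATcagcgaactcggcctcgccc
Lss: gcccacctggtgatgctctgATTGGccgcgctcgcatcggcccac
Insig1: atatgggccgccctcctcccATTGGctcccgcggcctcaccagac
Hmgcs1, Idi1 and Fdps held 2 boxes each, and Lss and Insig1 held 1 each. In Fdps the boxes lie on opposite strands. Cyp51 and Dhcr7 had no CCAAT in this window, and their windows held 1 and 2 Sp1 boxes.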

How the data were processed

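One library per liver was sequenced from 3 FL and 3 CL rats. The authors used the FASTX-Toolkit for trimming and TopHat2 for alignment, kept reads with a single location, and deposited FPKM to 2 decimals. Their methods name GRCH38, whereas the gene identifiers are Ensembl's for rat. A gene with near-identical copies can lose reads under unique mapping. The authors discarded antisense reads of lncRNAs, and whether counting of other genes used strand was not given in the sources used here. The table held 2 further columns of values that match no sample, and these were not used. Pairs of rats had identical values in 0.87% to 2.54% of genes, so each library was counted once.

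Groups came from the labels. The test was limma (3.58.1, trended prior, R 4.3.3) on log2(FPKM + 0.1) over the 14864 genes averaging 0.1 FPKM or more, with Benjamini-Hochberg adjustment over all of them. A gene was called at an adjusted p under 0.05. Read depth per library was not given in the sources used here, so no counting intervals were made. Named genes were the 8 genes, from each list up to 4 called genes and the most abundant one, and the 5 genes with the most similar profile. Some genes of the lists are not reported here by name. The genes and lists were chosen with earlier results of these data known. Tables and plots were made with Python 3.11.15, pandas 2.3.3 and matplotlib 3.10.9. Alternatives were other pseudocounts, filters, scalings and priors, a 2-fold limit, and leaving out each rat.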

Additional observations from a re-analysis of the deposited data

How the results depend on the processing

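Under the 14 alternatives, 99 of 112 results for the 8 genes kept their direction and their side of the threshold, 3 passed the threshold and 10 changed sign. The genes called as higher in the FL group numbered 2518, and 1301 with median scaling, 778 with quantile normalization, 1381 with a fold change of at least 2 and 938 to 3198 with each rat left out. The genes called as lower numbered 288, and 533, 536, 139 and 121 to 338 in the same settings. Of the 8 genes, 0 to 3 were called as higher with each rat left out, the 3 without CL5 and 0 without any other rat. No other alternative gave a call among them. Leaving out CL5, the highest CL rat in each of the 8 genes, raises their differences by its construction. The log2 difference of Idi1 was -0.074 with median scaling and ran from -0.061 to 0.43 with each rat left out. That of Dhcr7 was -0.19 with median scaling, -0.075 with quantile normalization and from -0.16 to 0.28 with each rat left out. Those ranges were -0.21 to 0.18 for Cyp51, -0.50 to 0.36 for Insig1, 0.35 to 0.85 for Hmgcs1, 0.17 to 0.78 for Fdps, 0.53 to 1.08 for Sqle and 0.21 to 0.80 for Lss. The causes of these changes were not tested. The median of the 8 genes ran from 0.12 to 0.60 with each rat left out. Of the 25 called genes in the pathway lists, 14 were called under every alternative, and 54 of 348 results lost the call with 0 changes of sign. The groups were made of different rats with no pairing between them, so no paired analysis was made. The mean summed FPKM of the hepatocyte-like markers was lower in the FL group by all 8 markers (difference -7286) and higher without Alb (difference 182.6), and the median coefficient of variation of the 8 genes in the CL group went from 41.9% to 12.5% without CL5. Both alternatives were chosen after the data were seen. The precision is limited by 3 rats per group, and the read depth of each library was not given in the sources used here.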
